A study of Homo sapiens with 30 samples.

Results

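HOXA5, HOXA6, HOXA7, HOXA9, HOXA10, HOXA11 and HOXA13 make up the posterior part of the HOXA cluster on human chromosome 7. Their chromatin was followed through lists of open chromatin peaks. A peak was taken where it overlapped the GRCh38 body of 1 of these genes with 3 kb added on each side. These are 7 of 20037 protein-coding genes. Their windows run from 27138052 to 27188232 and from 27191364 to 27203091, 61909 bp in all. Between 13 and 20 peaks per list lay there, and over all lists they merged into 24 of the 493444 regions of the genome.

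The peaks came from OmniATAC-seq of wild-type H1 cells, a human embryonic stem cell line. In this assay the Tn5 transposase cuts accessible DNA. The 10 populations had 3 libraries each, and the deposited data hold 1 peak list per population. Pluripotent cells (hPSC) were taken on day 0. Definitive ectoderm (DE) was taken on day 1, after A8301, LDN193189, C59 and Trametinib, which block TGF-beta receptors, BMP receptors, WNT secretion and MEK. Anterior neural ectoderm (aNE) was made from DE with A8301, LDN193189, C59 and Thiazovivin, a ROCK inhibitor, and was taken on day 2. Posterior neural ectoderm (pNE) was made from DE over the same day with A8301, LDN193189 and Thiazovivin plus TTNPB at 50 nM, FGF2 at 20 ng/mL and XAV939. TTNPB is an agonist of the retinoic acid receptors, and XAV939 inhibits tankyrase. Each day 2 population was then grown to day 4 in a telencephalon, midbrain or hindbrain medium. This gave aNE_T, aNE_M and aNE_H, called aNE-derived here, and pNE_T, pNE_M and pNE_H, called pNE-derived. The full make-up of these media is not given in the sources used here. Cells meant for day 4 were plated at 75000 (aNE) or 150000 (pNE) per square cm, so origin and plating density cannot be told apart. The labels give 37500 per square cm for both day 2 populations, so day 2 and day 4 also differ in plating density. All cells came from 1 line.

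HOX genes encode homeodomain transcription factors that give cells their place along the body axis. Their order on the chromosome follows the order of their expression. Genes at the anterior end act in the hindbrain and respond early to retinoic acid, while genes towards HOXA13 act in the trunk, limbs and urogenital tract. In pluripotent cells the clusters are held silent by Polycomb proteins. The boundary protein CTCF is known to bind between several of the posterior genes. Neither Polycomb marks nor CTCF were measured here.

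The annotated starts of the members were compared with the peaks, and 4 promoters are shown because the lists differ there or because none had a peak. Each is the RefSeq sequence (GRCh38.p14) of the 250 bases before an annotated start, on the minus strand. In the first and second, capitals mark bases inside a peak of all 3 pNE-derived lists and of no aNE-derived list. In HOXA7 they mark bases inside a peak of each of the 5 lists with a peak there, and in HOXA9 a match to TTTATG on the other strand.
HOXA10, chr7:27179862-27180111: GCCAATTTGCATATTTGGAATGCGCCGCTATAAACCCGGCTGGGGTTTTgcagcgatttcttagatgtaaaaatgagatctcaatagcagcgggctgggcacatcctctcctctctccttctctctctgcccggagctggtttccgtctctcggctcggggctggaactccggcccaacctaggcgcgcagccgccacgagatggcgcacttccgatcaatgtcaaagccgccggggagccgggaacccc
HOXA10-HOXA9 read-through, chr7:27180240-27180489: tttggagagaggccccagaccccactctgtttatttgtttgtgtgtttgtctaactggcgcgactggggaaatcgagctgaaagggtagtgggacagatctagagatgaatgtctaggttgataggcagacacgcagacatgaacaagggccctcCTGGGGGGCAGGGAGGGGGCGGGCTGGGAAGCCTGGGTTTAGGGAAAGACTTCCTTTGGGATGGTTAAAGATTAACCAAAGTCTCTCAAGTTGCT
HOXA7, chr7:27156676-27156925: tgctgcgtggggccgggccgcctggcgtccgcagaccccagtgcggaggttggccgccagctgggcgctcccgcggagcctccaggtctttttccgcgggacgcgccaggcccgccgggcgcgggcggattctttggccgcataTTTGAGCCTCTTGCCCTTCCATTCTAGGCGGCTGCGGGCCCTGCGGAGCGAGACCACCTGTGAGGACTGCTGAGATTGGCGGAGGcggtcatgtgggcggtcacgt
HOXA9, chr7:27165538-27165787: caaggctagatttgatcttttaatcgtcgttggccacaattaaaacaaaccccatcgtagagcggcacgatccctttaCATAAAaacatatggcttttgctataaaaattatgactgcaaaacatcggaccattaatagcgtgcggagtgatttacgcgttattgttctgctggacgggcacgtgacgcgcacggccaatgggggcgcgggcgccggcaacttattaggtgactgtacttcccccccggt

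List length ranged from 167792 peaks (aNE) to 313095 (pNE_H) on the autosomes and sex chromosomes, and the lists covered from 75.5 to 129.2 Mb. Read depth is unknown and there is no value per library, so no difference below has a replicate error; the lists of 1 origin come from different media. In bulk samples, more cells open at a site and more open chromatin per cell cannot be told apart. The narrowest peak was 122 to 126 bp wide in the aNE-derived lists and 109 to 115 bp in the pNE-derived lists. Every marker gene inspected (pluripotent, neural, anterior, posterior, hindbrain, mesoderm or endoderm) had a peak within 3 kb in all 10 lists, so a peak near a marker did not tell the populations apart. The 5 pluripotency genes had 15624 covered bp together in hPSC and between 10478 (pNE_M) and 15106 (aNE_T) on day 4, with 14991 in pNE_H. The mesoderm and endoderm genes had between 7320 and 9246, and their part in the results was not tested. In the member windows pNE_M stood apart from the others. Shared bases divided by bases in either list (the Jaccard index) were 0.383 to 0.492 for pNE_M with each other list, against 0.516 to 0.811 for the other 36 pairs.

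Bases of the windows inside peaks were counted first. The windows had 7192 covered bp in hPSC, 7110 in DE, 8640 in aNE and 8192 in pNE. The aNE-derived lists of day 4 had 7906, 9085 and 7674 (always in the order telencephalon, midbrain, hindbrain medium, or T, M, H), and the pNE-derived lists 8994, 11694 and 10944. Peaks thus covered between 11.5% and 18.9% of the windows. The ranges of the origins overlapped, since pNE_T lay just below aNE_M, while pNE_M and pNE_H were above every other list. The means were 8222 ± 757 bp (SD, n = 3 lists) for aNE origin and 10544 ± 1394 for pNE origin, a difference of 2322 bp. An exact permutation test over the 6 lists, two-sided, gave p = 0.2, and 0.4 after Benjamini-Hochberg adjustment over 3 tests. The smallest p this design allows is 0.1. Within each medium the pNE-derived list was higher, by 1088 bp in telencephalon, 2609 in midbrain and 3270 in hindbrain medium. Of the pNE-derived lists only pNE_H covered more of the genome than every aNE-derived list, at 129.2 Mb. The covered length of pNE_T (89.4 Mb) and pNE_M (84.2 Mb) lay within the aNE-derived range (84.0 to 91.3 Mb). The pNE-derived lists covered 1.15 times as many bases of the genome as the aNE-derived lists on average, against 1.28 times in these windows. Per Mb of all covered bases the difference was 14.2 bp (two-sided exact permutation p = 0.6). On this scale pNE_T (101 bp per Mb) and pNE_M (139) lay above every aNE-derived list (90.7 to 99.6), and pNE_H (84.7) lay below them all. Over gene bodies alone the difference was 103 bp.

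**Figure D1:**
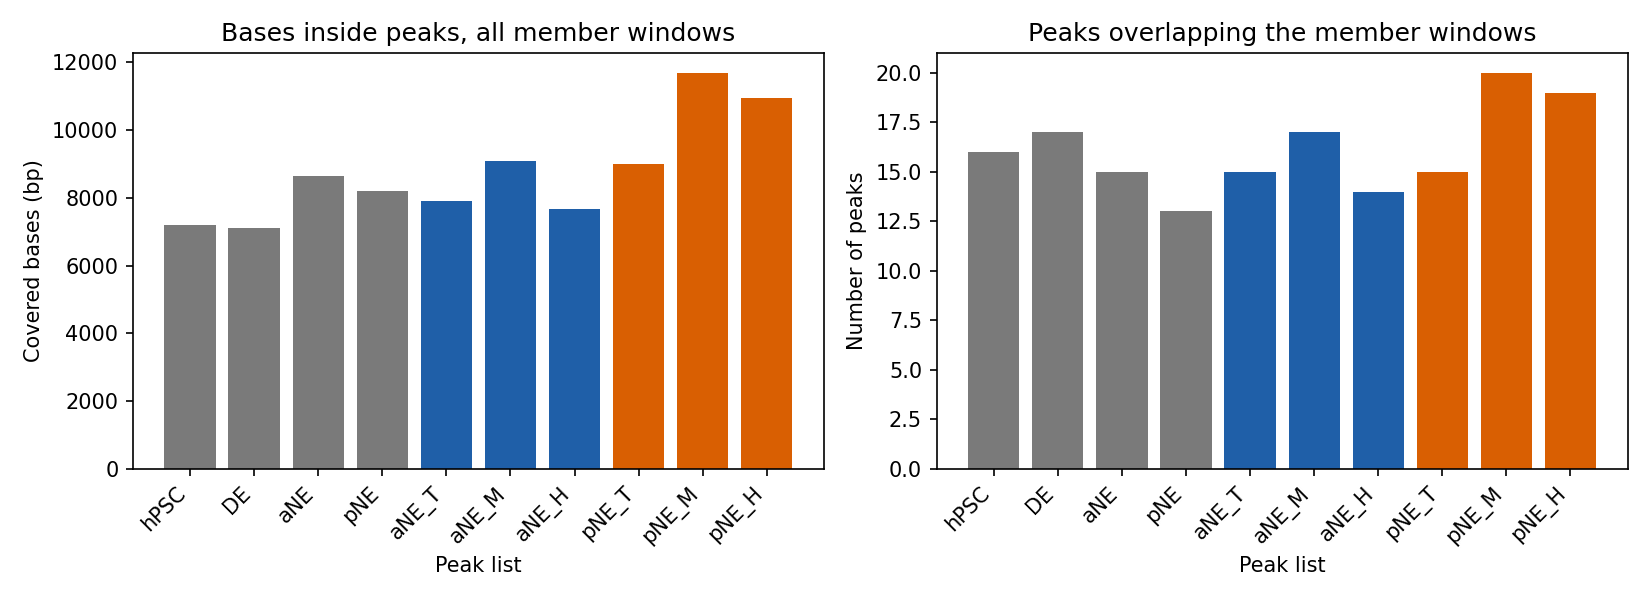
Left, bases of the member windows inside peaks (bp); right, number of peaks overlapping the windows; 1 bar per list, grey for days 0 to 2, blue for aNE-derived and orange for pNE-derived. pNE_M (11694 bp, 20 peaks) and pNE_H (10944 bp, 19 peaks) are the highest in both panels.

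Peak numbers were close. There were 16 peaks in hPSC, 17 in DE, 15 in aNE and 13 in pNE, then 15, 17 and 14 in the aNE-derived and 15, 20 and 19 in the pNE-derived lists. The origins overlapped, with a difference of 2.67 peaks (two-sided exact permutation p = 0.3, adjusted 0.4). With all lists cut to 1 length by peak width the difference was 0. The median width in the windows was 394 to 497.5 bp in the aNE-derived and 405.5 to 482 bp in the pNE-derived lists.

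Of the 24 merged regions, 10 had a peak in all 10 lists, from hPSC on, and 7 had a peak in a single list. The shared regions held most of the covered bases, 6920 to 7578 bp in the aNE-derived and 7936 to 8561 bp in the pNE-derived lists. The remaining regions held 754 to 1507 bp in the aNE-derived lists, 1058 in pNE_T, 3133 in pNE_M and 2630 in pNE_H. pNE_T was therefore within the aNE-derived range outside the shared regions, and pNE_M and pNE_H were above it. No region had a peak in all lists of 1 origin and in none of the other, in either direction. Over the genome 2.77% of regions with a day 4 peak did so for pNE origin and 0.752% for aNE origin. With 22 regions here, a count of 0 is not far from that background.

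**Figure D2:**
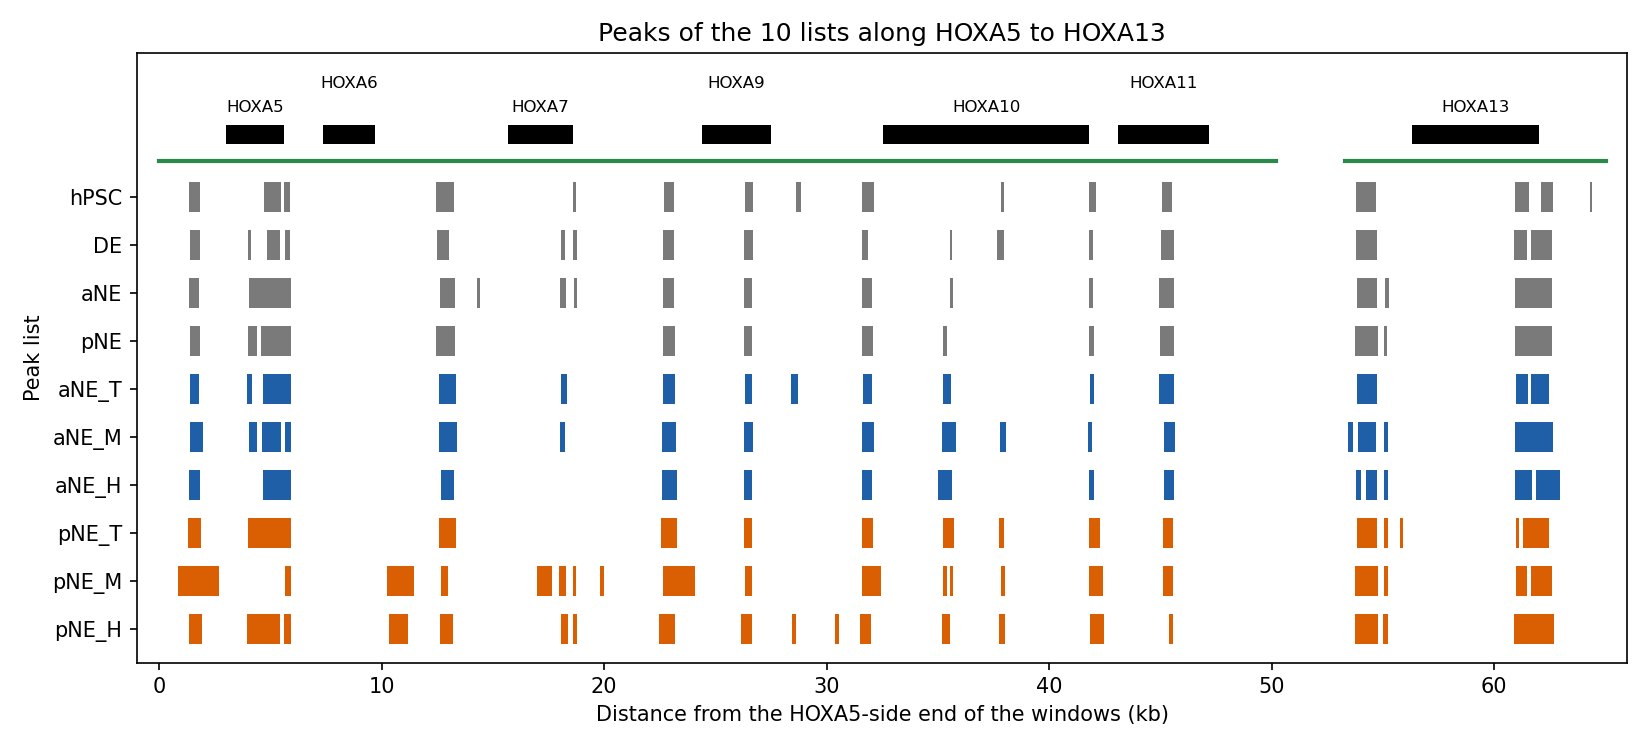
Peaks of the 10 lists (rows; grey for days 0 to 2, blue for aNE-derived, orange for pNE-derived) along the windows, in kb from the HOXA5-side end; black boxes are gene bodies and green lines the windows. The same 10 positions recur in every row, and the peaks between 10 and 12 kb appear only in pNE_M and pNE_H.

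A second measure was the covered bases within each region, chosen after the values were seen. In 4 of the 22 regions all pNE-derived lists lay above all aNE-derived lists, and in 0 regions the reverse. The background shares are 5.91% and 3.58% of regions with a day 4 peak. All 4 regions had a peak in every list, and among regions open in all 6 day 4 lists the shares are 7.18% and 6.42%. They lay 0.83, 22.48, 41.77 and 53.77 kb from the HOXA5-side end, so they were not gathered at 1 end. The last, between HOXA11 and HOXA13, was separated by only 4 bp. With gaps of at most 100 bp merged, the count was 3 for pNE origin and 0 for aNE origin.

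The members follow in chromosomal order, each with the covered bp of its window. Of the 7, HOXA5, HOXA6 and HOXA10 had all pNE-derived lists above all aNE-derived lists, and none had the reverse. Over 18685 protein-coding genes with day 4 bases, 7.57% were called in the first direction and 3.21% in the other. Neighbouring windows overlap, so these are not independent counts: HOXA5 and HOXA6 share the peak at the HOXA5 start. Scaled per Mb of covered bases, only HOXA6 kept non-overlapping ranges, and the background shares became 4.88% and 19.4%. The median difference was 333 bp over the members and 42.3 bp over all these genes.

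**Figure D3:**
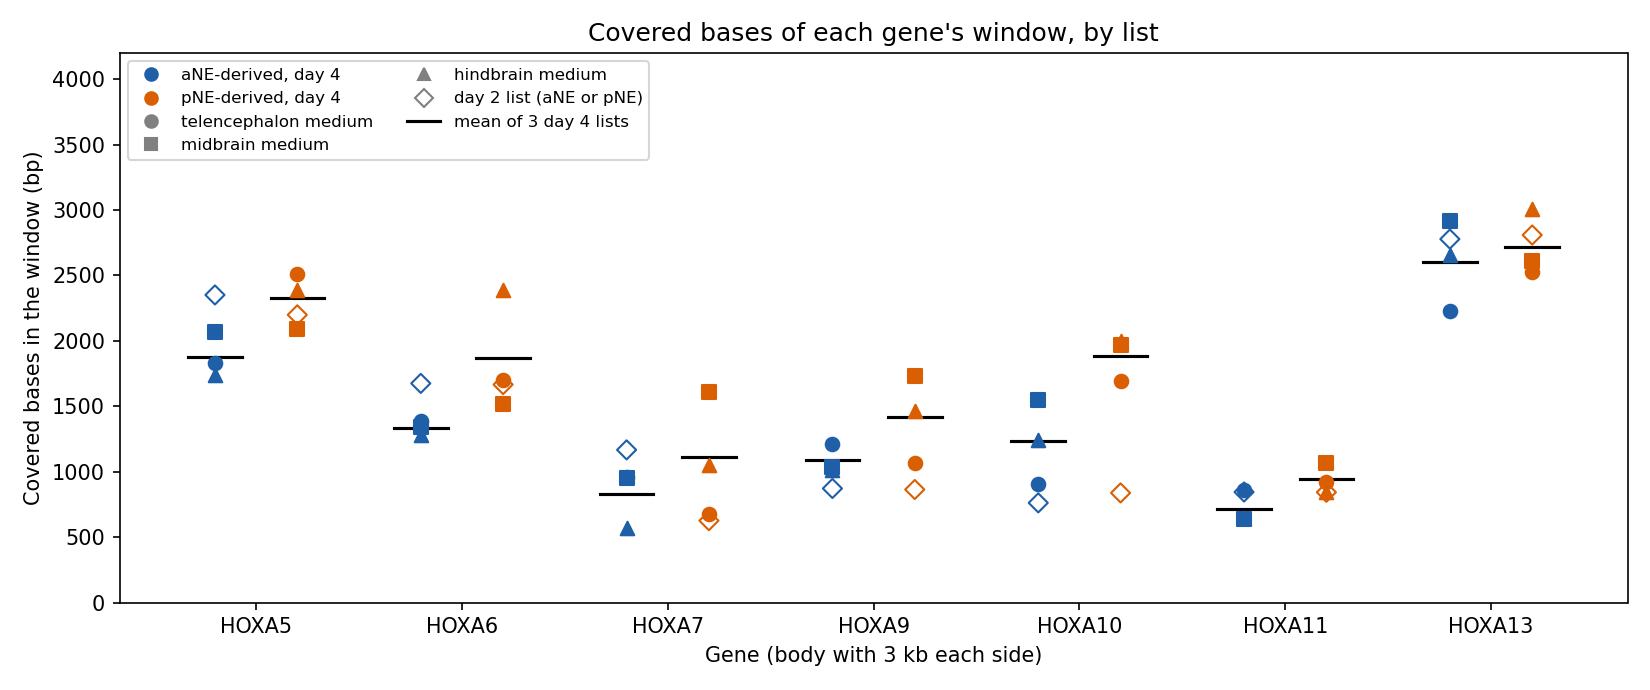
Covered bases (bp) of each gene's window: blue for aNE and orange for pNE origin, circles, squares and triangles for the telencephalon, midbrain and hindbrain media, open diamonds for the day 2 lists, black bars for the means of 3 day 4 lists. The colours separate at HOXA5, HOXA6 and HOXA10, and overlap at the other genes.

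HOXA5 (27141052 to 27143681) patterns the cervical and upper thoracic region and the lung. Its window had 1526 bp in hPSC, 1409 in DE, 2351 in aNE and 2199 in pNE. The aNE-derived lists had 1830, 2065 and 1738, and the pNE-derived lists 2509, 2088 and 2385. The day 4 ranges were separated by only 23 bp, between aNE_M and pNE_M. With 1 kb flanks the ranges overlapped, and over the gene body alone the mean difference was -77.7 bp, against 450 bp with 3 kb flanks. In the body the aNE-derived lists had 1161, 1236 and 962 bp and the pNE-derived lists 1638, 0 and 1488. The negative sign there thus rests on pNE_M, while pNE_T and pNE_H lay above every aNE-derived list.

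The pNE_M list had its own layout at HOXA5. It had 0 covered bp in the gene body, where the other day 4 lists had between 962 and 1638. Its peak downstream of the gene, from 27138881 to 27140736, was 1856 bp wide, against 394 to 612 bp in the other day 4 lists. That region lies inside the long HOXA3 and HOXA-AS3 transcription units and separated the origins, with 593 bp or more in the pNE-derived and 551 or less in the aNE-derived lists.

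HOXA6 (27145396 to 27147774) is a trunk HOX gene and had no covered base in its own body in any list. Its promoter was likewise without a peak in all 10. The values of its window come from the flanks: 1270 bp in hPSC, 1056 in DE, 1675 in aNE and 1666 in pNE. The day 4 values were 1384, 1341 and 1279 in the aNE-derived lists and 1701, 1517 and 2388 in the pNE-derived lists. The origins did not overlap on day 4, but both day 2 lists lay above every aNE-derived list. With 1 kb flanks the ranges overlapped, as they did when only the wider 50% of each list's peaks were kept.

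The clearest region present in some pNE-derived lists only lay upstream of HOXA6, at chr7:27148309-27149516. It had 1208 bp in pNE_M and 878 bp in pNE_H, and 0 in the other 8 lists, pNE_T and both day 2 lists included. It is inside HOXA3 and HOXA-AS3 as annotated and holds no annotated start. The next region, chr7:27150511-27151428, holds an annotated start of HOXA3 and was open in all lists, with 570 to 807 bp in the aNE-derived and 355 to 752 in the pNE-derived lists.

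HOXA7 (27153716 to 27156675), an Antennapedia-class gene of the trunk, varied widely among lists of 1 origin. Its window had 772 bp in hPSC, 711 in DE, 1167 in aNE and 626 in pNE. The aNE-derived lists had 958, 950 and 570, and the pNE-derived lists 674, 1610 and 1054. The origins overlapped, with aNE_H and pNE_T both low. The promoter shown above lay partly under a peak in hPSC, DE, aNE, pNE_M and pNE_H, with 106 to 151 of 250 bases covered. It had 0 bases in pNE, in pNE_T and in all aNE-derived lists. The start of HOXA7 was thus partly covered in hPSC, DE and aNE and, among the day 4 lists, in pNE_M and pNE_H only.

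HOXA9 (27162438 to 27165537), known for its role in blood stem cells and in leukaemia with its partner MEIS1, had no peak on its promoter in any list. Its window had 1050 bp in hPSC, 868 in DE, 872 in aNE and 864 in pNE. The day 4 values were 1211, 1034 and 1017 in the aNE-derived lists and 1065, 1734 and 1463 in the pNE-derived lists. The origins overlapped through aNE_T and pNE_T. The wide region between HOXA7 and HOXA9, chr7:27160530-27162129, lies in no gene body. It had 477 and 485 bp in hPSC and DE, 522 and 543 in aNE and pNE, then 553, 667 and 655 in the aNE-derived and 703, 1420 and 708 in the pNE-derived lists. There the origins did not overlap, by 36 bp.

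HOXA10 (27170605 to 27179861), needed for uterine and lumbar patterning, had the largest mean difference of the members, 654 bp. Its window had 975 bp in hPSC, 886 in DE, 762 in aNE and 838 in pNE. The aNE-derived lists had 905, 1547 and 1243, and the pNE-derived lists 1690, 1969 and 1999. The ranges were separated by 143 bp, and all pNE-derived lists lay above every other list. Per Mb of covered bases, and over the gene body alone, the origins overlapped. A region inside the gene, chr7:27173079-27173865, had 0 bp in hPSC, 117 to 164 in DE, aNE and pNE, and 302 to 646 in all day 4 lists, with no separation by origin.

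The region of HOXA10 whose bases separated the origins lay at its start. The peak there (chr7:27179819-27180504 over all lists) had 300 bp in hPSC, 164 in DE, 164 in aNE and 187 in pNE. The aNE-derived lists had 178, 160 and 199 bp there, and the pNE-derived lists 471, 613 and 630. All lists had a peak at this place, and the pNE-derived peaks were the wider ones. They reached 473, 616 and 643 bp upstream of the HOXA10 start, past the start of the HOXA10-HOXA9 read-through transcript 378 bp upstream. The aNE-derived peaks reached 188, 117 and 201 bp, and the day 2 peaks 164 and 190. As a result the read-through promoter shown above had 95, 238 and 250 covered bases in the pNE-derived lists and 0 in the other 7.

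**Figure D4:**
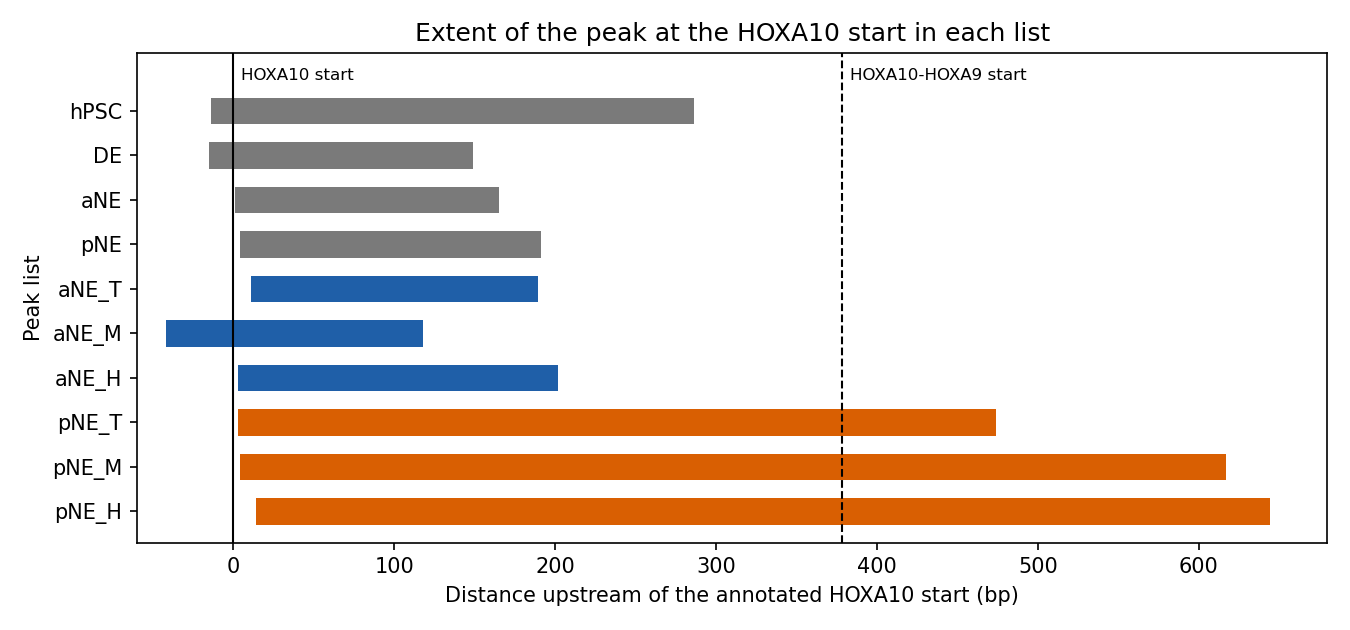
Extent of the peak at the HOXA10 start in each list, in bp upstream of the start (solid line); the dashed line is the annotated start of the HOXA10-HOXA9 read-through transcript. Only the orange bars (pNE-derived) pass the dashed line.

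Bases inside a peak of all pNE-derived lists and of no aNE-derived list came to 301 bp over all windows, and 272 of these formed 1 stretch at HOXA10, chr7:27180063-27180334. The reverse set came to 16 bp. Of the 301, only 7 were also in a peak of pNE and in none of hPSC, DE and aNE. The stretch at HOXA10 lay past the end of the day 2 peaks, while the hPSC peak, ending at 27180146, covered part of it. Leaving out the midbrain, telencephalon or hindbrain lists gave 1210, 1540 and 413 bp. With fewer lists to satisfy, this set can only stay the same or grow, so the rise carries no information.

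HOXA11 (27181157 to 27185232), active in kidney, uterus and forearm, had no peak on its promoter in any list. Its window had 747 bp in hPSC, 744 in DE, 845 in aNE and 843 in pNE. The day 4 values were 861, 641 and 647 in the aNE-derived and 925, 1069 and 842 in the pNE-derived lists. The origins overlapped through aNE_T and pNE_H. The window also takes in the HOXA10 start, which is its neighbour. Within the gene itself the region chr7:27182990-27183691 had 683, 481 and 448 bp in the aNE-derived and 454, 456 and 212 bp in the pNE-derived lists, with a mean 163 bp lower in the latter and overlapping ranges.

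HOXA13 (27194364 to 27200091), the gene of digits and the genital tract, had the largest covered area of the members in every list and the smallest mean difference, 113 bp, whose sign changed with 1 kb flanks (-48.3 bp). Its window had 2217 bp in hPSC, 2466 in DE, 2778 in aNE and 2809 in pNE. The day 4 values were 2232, 2914 and 2658 in the aNE-derived and 2524, 2611 and 3009 in the pNE-derived lists. The origins overlapped. Its promoter was covered in all lists, by 182 of 250 bases in hPSC and by all 250 elsewhere. This region, chr7:27198952-27201015, also holds the start of the antisense RNA HOTTIP. The region chr7:27191817-27192829, between HOXA11 and HOXA13, was also open in all lists, with 705 to 901 bp in the aNE-derived and 905 to 1010 bp in the pNE-derived lists, a gap of 4 bp.

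HOXA5 is not among the promoters described here. Promoters of the other 6 members thus fell into those covered in all lists (HOXA13 and the first HOXA10 start), those covered in some (HOXA7 and the read-through start) and those covered in none (HOXA6, HOXA9, HOXA11 and the second HOXA10 start). Of all 35116 promoters in the RefSeq table, 68.4% had a peak in at least 1 list and 52.5% in all 10. The 8 promoters were searched on both strands for motifs of the retinoic acid receptors (AGGTCA and AGTTCA), the CDX motif TTTATG, the MEIS motif TGACAG and the CTCF core motif. Neither the receptor motifs nor the MEIS motif was found in these windows of 250 bases. TTTATG matched HOXA9 alone and the CTCF core the first HOXA10 start alone. Of all promoters, 12.1% hold AGGTCA, 8.8% AGTTCA, 9.64% TTTATG, 13% TGACAG and 2.02% the CTCF core.

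The position of the differences along the cluster was read from 5 kb bins, starting at the HOXA5-side end. Of 13 bins, 3 had all pNE-derived lists above all aNE-derived lists and 0 the reverse. Over all bins of the genome with day 4 bases the shares are 7.93% and 3.81%. The first bin, 0 to 5 kb, lies at HOXA5 and had 925, 1301 and 833 bp in the aNE-derived and 1601, 1856 and 1648 in the pNE-derived lists. The next, 20 to 25 kb, lies between HOXA7 and HOXA9, and the last, 40 to 45 kb, holds the HOXA10 start, with 160 to 232 against 471 to 630 bp. From 45 to 65 kb, over HOXA11 and HOXA13, no bin was separated. The ranges from 10 to 20 kb were wide in the pNE-derived lists, 0 to 1273 bp at 15 to 20 kb, with pNE_T at 0. With bins of 10 kb only 1 was separated.

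**Figure D5:**
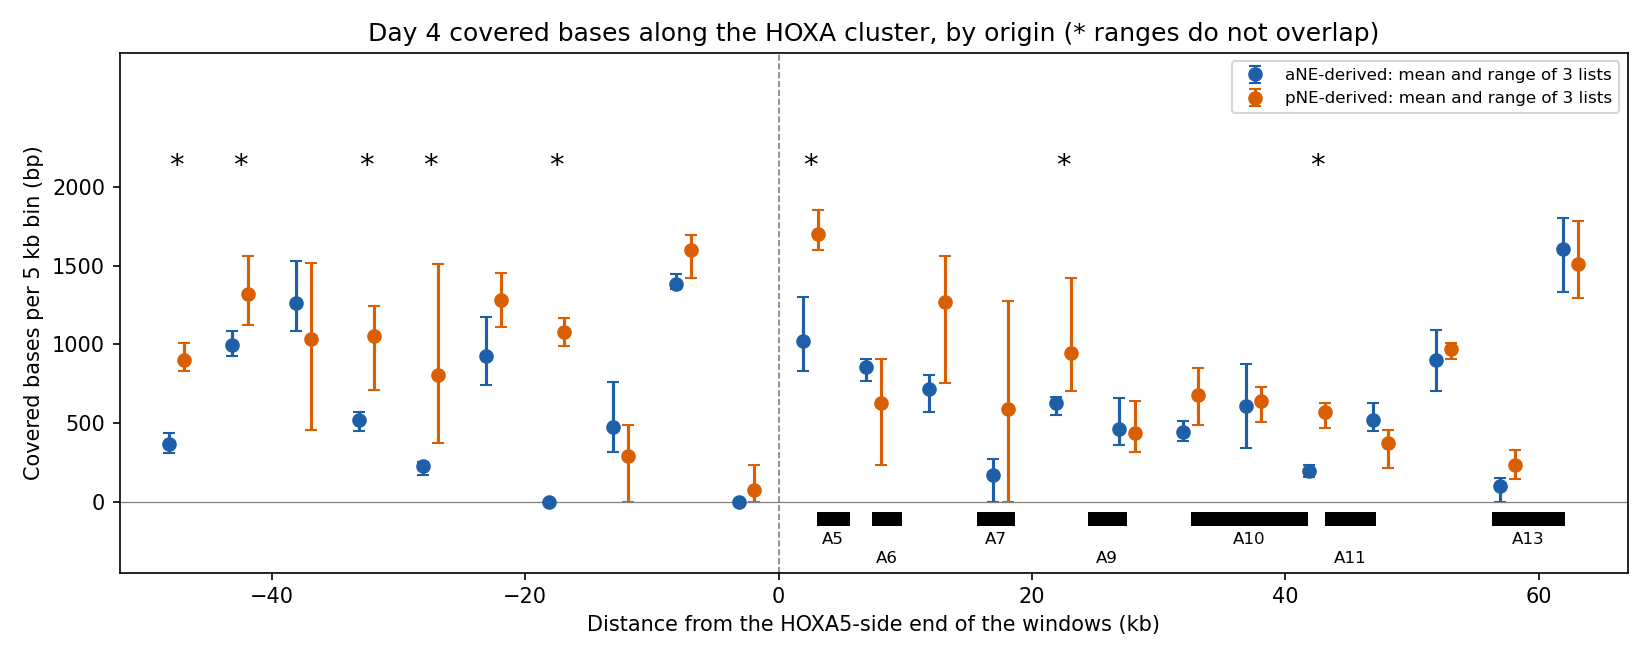
Day 4 covered bases (bp) per 5 kb bin along the HOXA cluster, points for the mean and bars for the range of 3 lists, blue for aNE and orange for pNE origin; 0 kb is the HOXA5-side end of the windows, negative distances run towards HOXA4 and HOXA3, and black boxes are the members. Asterisks mark 5 bins left of 0 and 3 bins right of it, the last at 40 to 45 kb by the HOXA10 start.

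The anterior side of the cluster was taken for comparison, as the 48059 bp that end at the first member window. Its bases were 5946, 6117 and 5301 in the aNE-derived and 9537, 7323 and 10731 in the pNE-derived lists, without overlap and at a ratio of means of 1.59. In 5 of its 25 merged regions with a day 4 peak, all pNE-derived lists and no aNE-derived list had a peak, and in 1 the reverse. In the posterior windows it was 0 of 22 either way. The genome shares are 2.77% for pNE origin and 0.752% for aNE origin. The member windows held 57.1% to 59.8% of the bases of both parts in the aNE-derived lists, and 48.5%, 61.5% and 50.5% in the pNE-derived lists (T, M, H). The share was thus lower in pNE_T and pNE_H and higher in pNE_M. The mean difference of -5.15 percentage points gave p = 0.4 in the two-sided exact permutation test (adjusted 0.4), so a difference between the parts was not shown. Over gene bodies alone the difference was -8.6 points (two-sided exact permutation p = 0.1, the smallest possible), and without the midbrain lists it was also -8.6 points (p = 0.333, exact).

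HOXB5 to HOXB13, the matching part of the HOXB cluster, had 6144, 5959 and 5671 bp in the aNE-derived and 6815, 9286 and 10198 bp in the pNE-derived lists. These did not overlap, at a ratio of 1.48. The HOXA share of both together was 58.1% on average for aNE origin and 54.8% for pNE origin (two-sided exact permutation p = 0.2, not adjusted with the others). Of the 32 other HOX genes, 11 had pNE-derived lists above all aNE-derived lists and 0 the reverse, with a median difference of 419 bp, against 7.57% and 3.21% of all protein-coding genes. Per Mb of covered bases the counts were 6 and 0, against 4.88% and 19.4%. The largest were HOXB3, 3052 against 6851 bp, and HOXA3, 6125 against 9285 bp. HOXC13 and HOXC11 had the largest differences the other way, -69.7 and -63.7 bp, with overlapping ranges. The annotated body of HOXA3 contains the whole windows of HOXA5 and HOXA6, and that of HOXB3 contains HOXB4, which was also called. The counts of other HOX genes are therefore not independent of each other or of the members. Beside the cluster, EVX1 had 845 against 974 bp with overlap, and HOTTIP had 2339 bp in both means. The 10 regulators (among them the CDX, RAR and MEIS genes and CYP26A1) had 1 gene called, RARB, with 19530 against 33384 bp.

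On day 2 the difference of pNE from aNE was -5.19% of the covered bases, with no test since each has 1 list. It was -11.6% over gene bodies and -17% per Mb of covered bases. Their Jaccard index, 0.811, was the highest of the 45 pairs of lists in these windows. By gene, pNE minus aNE was -152 bp at HOXA5, -9 at HOXA6, -541 at HOXA7, -8 at HOXA9, 76 at HOXA10, -2 at HOXA11 and 31 at HOXA13. HOXA7 differed most, with 4 peaks in aNE and 1 in pNE. Over all protein-coding genes with day 2 bases, 59.6% had more in pNE and 40.2% more in aNE.

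From hPSC to DE the covered bases differed by -1.14%, or by -10.7% per Mb of covered bases and -8.4% in lists of one length by width. Compared with DE, aNE had 21.5% more bases and pNE 15.2% more (51.2% and 25.5% per Mb). The largest member difference lay at HOXA5, where the region in the gene (chr7:27142013-27143982) had 954 bp in DE, 1915 in aNE and 1775 in pNE. The HOXA13 window was higher in both than in DE, and the HOXA7 window was higher in aNE (1167 against 711 bp) and lower in pNE (626). From day 2 to day 4, pNE_M shared little with pNE (Jaccard 0.40), while pNE_T and pNE_H had 0.749 and 0.613. The aNE descendants had 0.730, 0.730 and 0.666 with aNE. Among day 4 pairs the index was 0.660 to 0.685 within aNE origin, 0.418 to 0.661 within pNE origin and 0.383 to 0.737 across origins, so pairs of pNE origin were not closer to each other than to the rest.

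Genes outside the HOX clusters were ranked by how their covered bases per Mb followed those of the members over the 10 lists, among 17133 genes. The highest Pearson correlations were 0.96 for FSTL3, 0.93 for TXNDC16, 0.92 for SEC62, 0.92 for GDF11 and 0.92 for BPNT2. The points share the list totals they were divided by, and with 10 points and this many genes the values are only a description. Before scaling per Mb, FSTL3, a secreted binder of activin, had 1368 to 1644 bp in the aNE-derived and 1651 to 2123 bp in the pNE-derived lists. These unscaled bases are not the measure used for the ranking.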

How the data were processed

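Chromatin accessibility was measured in 30 OmniATAC-seq libraries, 50000 cells each per the labels. The deposited files hold the start and end of each peak, 1 list per population, with no score, fold, p-value or summit. Bowtie2, MACS2, bedtools and the build hg38 are named in the submitters' processing notes. Thresholds and the way replicates were combined are not given in the sources used here. Lists were assigned by population name. Gene bodies came from RefSeq (GRCh38.p14); exon positions were not used here. Covered bases were counted after joining overlapping peaks of a list, and regions were merged over the lists where peaks shared 1 bp. A gene, bin or region was called where all lists of 1 origin lay above all of the other. Totals were compared by exact permutation of the 6 day 4 lists, where media stand in for replicates. All 7 members are named, and the other genes were named by size of difference within fixed lists. Members and lists were chosen with earlier results of these data known. Functions were tested on simulated lists. Python 3.11.15, numpy 2.4.6 and matplotlib 3.10.9 were used. Alternatives covered flanks, list reduction by width, scaling, bins and left-out lists. The comparison of bases within regions, the set of bases by origin, the share of the posterior windows and their alternatives were added after seeing the data. Values of some genes of the fixed lists are not reported here.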

Additional observations from a re-analysis of the deposited data

Results flagged for a closer look

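From the telencephalon to the hindbrain medium the covered bases of the member windows fell by 232 bp in the aNE-derived lists and rose by 1950 bp in the pNE-derived lists, so the origins moved in opposite directions and differed by 2182 bp. This difference rests on 1 list per group and was not tested. pNE_H is also the longest list. Per Mb of all covered bases the directions were not kept: pNE_T had 101 bp and pNE_H 84.7, while aNE_T had 90.7 and aNE_H 91.3. Of the 7 members, HOXA6 (-105 and 687 bp), HOXA7 (-388 and 380 bp) and HOXA9 (-194 and 398 bp) moved in opposite directions by origin. HOXA5 (-92 and -124 bp) and HOXA11 (-214 and -83 bp) were lower in hindbrain medium for both origins, and HOXA10 (338 and 309 bp) and HOXA13 (426 and 485 bp) were higher for both.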

How the results depend on the processing

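The total by origin kept its direction in all settings run, from 103 bp over gene bodies and 1410 bp with 1 kb flanks to 2470 bp with 10 kb flanks, and without a medium it was 1850 to 2940 bp. In alternatives chosen after seeing the data it was 1750 bp without pNE_M and 2120 bp without pNE_H. With media as pairs the exact p was 0.25, the smallest that test allows. No setting could reach 0.05, so this says nothing of stability. The peak number difference was 0 in lists of one length by width, and 1.5 to 4 without a medium. The count of members called for pNE origin was 0 over gene bodies, 1 with 1 kb flanks, 1 per Mb of covered bases and 3 to 6 without a medium; the last count uses pairs of lists, which separate more easily. HOXA13, never separated in these settings, had differences of -48.3 bp with 1 kb flanks, -5.5 bp without the hindbrain medium, -33.8 bp without pNE_H and -2.22 per Mb. HOXA5 and HOXA11 changed direction over their gene bodies (-77.7 and -163 bp), at HOXA5 only through the 0 bp of pNE_M. Regions open for pNE origin only were 1 with the wider 50% of each list, 1 with 50% coverage and 0 to 2 without a medium. Regions with separated bases were 5 to 8 for pNE and 0 to 2 for aNE origin without a medium, and 3 and 0 with gaps of at most 100 bp merged. Without a medium both kinds of region count can only stay the same or grow, since fewer lists are compared over the same regions. Separated bins numbered 1 at 10 kb. Bases of pNE origin only came to 0 over gene bodies, 491 with the wider 50% of each list and 413 to 1540 without a medium. Without a medium these bases could only stay at 301 bp or grow. The rise from DE to aNE was 36.1% in lists of one length by width and 51.2% per Mb. The day 2 difference ran from -17% per Mb to 1.13% with the wider 50% of each list, with -8.85% in lists of one length by width. Apart from what the settings leave out, causes were not tested. No paired analysis was possible because each list stands for all replicates of a population and carries no replicate number; pairing by medium is given above. Precision is limited by 1 list per population with unknown depth.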

Other observations

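Other annotated features of the windows had stable states. The miR-196b hairpin, between HOXA9 and HOXA10, had 0 covered bases in all 10 lists, although the region next to it, chr7:27169564-27170512, was open in all of them with 288 to 849 bp. The promoters of HOXA-AS3 and HOXA11-AS had 0 covered bases in all lists, and that of HOTTIP had all 250 bases covered in all lists. An inner HOXA3 start had 250 covered bases in 8 lists, 142 in DE and 102 in pNE_M, and the outermost HOXA3 start had none in any list.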
